A study of Mus musculus with 27 samples.

Results

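Mouse fibroblasts at the start of reprogramming were set against embryonic stem cells (ESC), to ask which histone marks of the pluripotent state were already in place and which were still missing. The comparison rests on 4 chromatin immunoprecipitation libraries of the 27 samples in the series, of which 19 had a list of peaks. They are the H3K4me3 and H3K27me3 libraries of fibroblasts given doxycycline (dox) and of ESC, chosen by their sample labels. The fibroblasts were mouse embryonic fibroblasts (MEF) of the V19-OSKM strain with an intact Utx gene (Utx+/Y), in which dox switches on the OSKM reprogramming factors Oct4, Sox2, Klf4 and c-Myc. They are called WT MEF dox here. The ESC were of the V6.5 strain, also Utx+/Y and without dox, and are called WT ESC. Both were grown in 2i/LIF medium, so the comparison crosses 2 strains and 2 cell sources as well as the induced factors, and these cannot be told apart. How long dox was given, and whether cells that failed to respond were removed, is not stated in the labels, so each dox library may mix cells at different stages. Untreated fibroblasts of the same strain (WT MEF) served as the starting point, and the lists of Utx-deficient cells (Utx-KO, Utx-/Y) and the UTX lists of WT cells served as further readouts of the same sites. The Utx-KO iPS clones are labelled as aberrant.

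H3K4me3 is trimethylation of histone H3 at lysine 4 and marks the start sites of active genes and of genes poised for activation. H3K27me3, trimethylation at lysine 27, is laid down by Polycomb complexes over silent developmental genes and is removed by the demethylase UTX. ES cells are known for sites that carry both marks, often called bivalent, at genes that stay silent until the cells differentiate. Peaks are regions where the authors' peak caller found enrichment, and each peak carries the authors' score, which ranks peaks within a list. A peak is said to be met in another list where it overlaps a peak there by at least 1 bp. Each state had 1 library per mark, so no difference between libraries has a replicate check and none was tested. The 95% intervals cover counting error over regions only.

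The H3K4me3 lists were of like size. WT MEF dox had 19689 peaks over 52.0 Mb with a median width of 2379 bp, and WT ESC had 19468 peaks over 46.1 Mb with a median width of 2099 bp. WT MEF had 18017 narrower peaks (median 1118 bp) over 23.6 Mb. The H3K27me3 lists were not of like size. WT MEF dox had 938 peaks over 0.643 Mb, of which 22 (2.35%) scored 100 or more, against 5679 peaks over 6.20 Mb and 1000 such peaks (17.6%) in WT ESC. In WT MEF, 4760 peaks covered 4.59 Mb and 89.7% scored 100 or more. Sequencing depth was unknown, and its part in these differences was not tested. Marker genes of fibroblasts and ESC were not analysed here, since no gene annotation of the build was at hand, and regions are named by their mm9 positions.

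Most H3K4me3 of ESC was already present in induced fibroblasts. Of the 24207 regions formed by merging both lists, 14353 were marked in both states, 5215 (21.5%) in WT MEF dox only and 4639 (19.2%) in WT ESC only. The log2 ratio of regions only with dox over regions only in ESC was 0.17 (interval 0.11 to 0.23), and 0.75 (0.68 to 0.83) among peaks with a score of at least 100. Shared sequence came to 34.5 Mb, which is 66.4% of the length covered with dox and 74.9% of the length covered in ESC. Untreated WT MEF set against the same WT ESC list gave 11685 regions in both, 2455 only in MEF and 7701 only in ESC, a log2 ratio of -1.65 (interval -1.72 to -1.58). Both comparisons use the same ESC library.

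Among WT ESC H3K4me3 peaks, 76.2% (interval 75.6 to 76.8) were met in WT MEF dox and 60.4% (59.8 to 61.1) in WT MEF. The peaks that fibroblasts already had were nearly all kept, since 99.6% of the 11767 ESC peaks met in WT MEF were also met with dox. Of the 7701 ESC peaks that WT MEF lacked, 3110 (40.4%, interval 39.3 to 41.5) were met with dox. The remaining 4591 were absent from both fibroblast lists. The wider peaks of the dox list give more room for overlap than those of WT MEF, and the part of width in this step was not tested.

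Stronger ESC peaks were met more often. When WT ESC H3K4me3 peaks were split by score into 5 groups of equal size, from group 1 (lowest) to group 5 (highest), the shares met with dox were 36.6%, 64.3%, 85.8%, 96.2% and 98.0%. In WT MEF the same groups were met at 14.5%, 33.7%, 66.4%, 91.2% and 96.4%. The gap between the fibroblast states was thus widest in group 2 and narrowest in group 5. In the reverse direction 73.5% (72.9 to 74.1) of the WT MEF dox peaks were met in ESC, from 22.8% in their lowest score group to 99.0% in their highest.

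**Figure D1:**
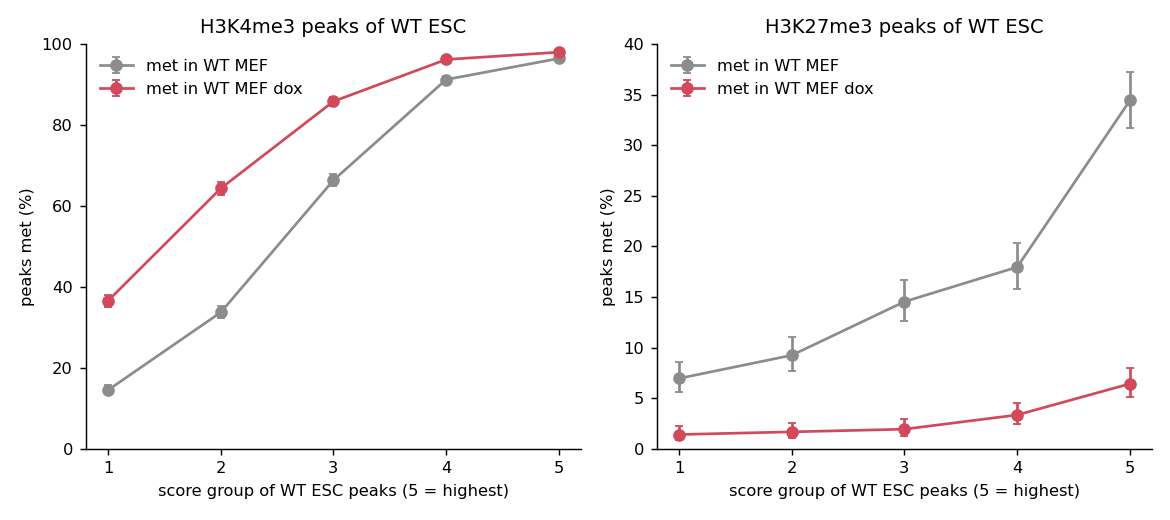
Share of WT ESC peaks met in WT MEF (grey) and in WT MEF dox (red) by score group of the ESC peaks, for H3K4me3 on the left and H3K27me3 on the right, whose axis ends at 40%; bars are Wilson 95% intervals over peaks. The dox line lies above the MEF line for H3K4me3 in all 5 groups (36.6% against 14.5% in the lowest) and below it for H3K27me3 (6.43% against 34.4% in the highest). The H3K27me3 lists hold 938 peaks with dox and 4760 in WT MEF.

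The 4639 ESC peaks still lacking with dox were mostly weak and narrow. Their median width was 1379 bp against 2353 bp for the ESC peaks that were met, 45.6% scored 100 or more against 79.4% of all WT ESC peaks, and 35.9% lay within 10 kb of a dox peak. Of these sites, 62.0% were marked in Utx-KO ESC, 45.1% in Utx-KO iPS clone 1 and 71.0% in clone 2. At the regions marked in both states these shares were higher, at 95.8%, 97.3% and 99.5%. Few of the sites lacking with dox were marked in other fibroblast lists, with 1.03% in WT and 1.38% in Utx-KO cells without dox and 4.59% in Utx-KO cells with dox. At the regions marked in both states the shares in these fibroblast lists were 80.0%, 81.4% and 92.6%.

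A small set of strong ESC peaks was also missing. In score group 5 of ESC, 79 of 3894 peaks had no dox peak. Of these 79, all 79 were marked in Utx-KO ESC, 75 in iPS clone 1 and 78 in clone 2. The 3815 strong peaks that were met were all marked in each of these lists, so such presence is not particular to the missing peaks. Only 1 was marked in WT MEF, 3 in its Utx-KO counterpart and 6 in the latter with dox. Since 99.6% of all ESC peaks met in WT MEF were also met with dox, few missing peaks could be marked in WT MEF. None of the 79 carried H3K27me3 in WT MEF, WT MEF dox or WT ESC. A count of 0 allows a share of up to 3.80%, and the strong peaks that were met carried it at 1.28%, 0.262% and 0.446%, so no difference was detectable. These peaks were wide, with a median of 5054 bp against 3580 bp for the 3815 that were met.

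UTX binding in ESC was more frequent at the ESC peaks that dox cells lacked. A UTX peak of WT ESC lay on 27 of the 79 strong missing peaks (34.2%, interval 24.7 to 45.2) and on 8.31% (7.47 to 9.23) of the strong peaks that were met. The same order was seen in each of the other 4 score groups. The shares for peaks not met and met were 8.54% and 5.20% in group 1, 11.9% and 3.35% in group 2, 16.5% and 3.92% in group 3 and 18.8% and 4.35% in group 4. Over all scores, UTX lay on 11.3% of the regions only in ESC, on 5.48% of those in both and on 2.38% of those only with dox. In group 5 the missing peaks were also the wider ones, and the part of width was not tested. UTX mapped in WT MEF dox itself lay on 0.517% of the regions only in ESC and on 1.66% of those in both.

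The 5 strongest ESC regions without H3K4me3 in WT MEF dox shared 1 pattern across the series. They lay on chromosome 12 from 87807410 to 87825702 (18293 bp), chromosome 8 from 44380534 to 44393711 (13178 bp), chromosome 14 from 22299249 to 22311370 (12122 bp), chromosome 6 from 122655745 to 122666891 (11147 bp) and chromosome 18 from 77275807 to 77284159 (8353 bp). Each scored 3100 in both ESC lists, and between 2711 and 3197 in iPS clones 1 and 2. None had an H3K4me3 peak in any of the 4 fibroblast lists, and none had an H3K27me3 peak in any list. The region on chromosome 18 also carried a UTX peak of ESC (score 170), and the other 4 carried none. Their presence in WT ESC and absence from WT MEF dox were fixed by the selection.

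Missing ESC peaks also occurred in runs. The longest run of consecutive WT ESC H3K4me3 peaks without a dox peak held 19 peaks on chromosome 13 from 65448901 to 66909459, a span of 1461 kb. None of the 19 was met in any of the 4 fibroblast lists, 16 were met in Utx-KO ESC, 6 in iPS clone 1 and 15 in clone 2. Their median score was 144, so this was a long stretch of modest peaks. A run of 11 stronger peaks (median score 608) lay on chromosome 7 from 49992619 to 50524658, again with none met in fibroblasts and with 10, 9 and 9 met in Utx-KO ESC and the 2 clones. The third run, 11 peaks on chromosome 12 from 20232323 to 20997420, was met at 2 peaks in Utx-KO MEF and at 5 in Utx-KO MEF with dox.

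H3K4me3 found with dox and not in ESC was only partly left over from the fibroblast. Of the 5215 dox peaks that ESC lacked, 1173 (22.5%, interval 21.4 to 23.6) were present in WT MEF and 4042 were in neither WT MEF nor WT ESC. The narrower peaks of WT MEF (median 1118 bp against 2379 bp with dox) give less room for overlap. The part of width in this share was not tested. Of the 2455 MEF peaks that ESC lacked, 69.0% (67.1 to 70.8) were still marked with dox, against 99.5% of the MEF peaks that ESC shared. Elsewhere in the series, 40.1% of the 5215 regions were marked in Utx-KO MEF with dox, 47.4% in iPS clone 2, 27.3% in iPS clone 1 and 13.3% in Utx-KO ESC. The regions marked in both states were found there at 92.6%, 99.5%, 97.3% and 95.8%.

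Taking WT MEF, WT MEF dox and WT ESC together by merged H3K4me3 regions, 11486 (46.0%) were marked in all 3 states. A further 2867 (11.5%) were marked with dox and in ESC but not in MEF. Regions only in ESC numbered 4591 and regions only with dox 4042, so dox cells had more regions of their own than regions shared with ESC alone. Those of their own were weaker and narrower. Their median best score was 98.7 and their median width 1373 bp, against 354 and 2095 bp for those shared with ESC alone. Regions only in ESC had 92.3 and 1381 bp. Regions shared by MEF and dox alone numbered 1158, regions of MEF alone 762, and 46 were marked in MEF and ESC but not with dox.

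The 5 strongest H3K4me3 regions of WT MEF dox that ESC lacked differed among themselves. Chromosome 1 from 109485979 to 109490963 scored 3190 with dox and 1090 in its Utx-KO counterpart, 148 and 118 in untreated WT and Utx-KO MEF, and 0 in the other 4 lists. Chromosome 1 from 165235620 to 165246008 scored 3100 with dox and was also present in WT MEF (2810) and Utx-KO MEF (2749). In WT ESC the same stretch carried an H3K27me3 peak (score 104), and in Utx-KO ESC one that scored 821. Chromosome 2 from 102732801 to 102742497 was likewise present in WT MEF (1115) and Utx-KO MEF (1496). Chromosome 17 from 25883304 to 25894139 and chromosome 15 from 101191195 to 101201304 scored 3100 with dox and 0 in the other 3 fibroblast lists. These 5 regions therefore hold both peaks also present without dox and peaks with no counterpart in untreated WT MEF.

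Strong dox peaks absent from ESC lay more often under ESC H3K27me3. In the highest score group of dox peaks, 41 of 3938 peaks were not met in ESC, and 10 of these 41 (24.4%) lay on a WT ESC H3K27me3 peak, against 5.21% of the 3897 that were met. In Utx-KO ESC the H3K27me3 counts were 26 of 41 and 625 of 3897. The 41 peaks were also wider, with a median of 5901 bp against 3944 bp, and 25 of them were present in WT MEF. Over all scores this difference was not seen, since 9.82% of the dox peaks absent from ESC and 9.35% of those present in ESC lay on ESC H3K27me3.

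The doubly marked sites of ESC carried H3K4me3 with dox more often than the other H3K4me3 sites of ESC did. Of 19468 WT ESC H3K4me3 peaks, 1364 also overlapped an H3K27me3 peak. H3K4me3 was present at 47.4% (44.7 to 50.0) of these 1364 sites in WT MEF, at 91.7% (90.1 to 93.1) in WT MEF dox and at 91.4% (89.8 to 92.8) in Utx-KO ESC. At the 18104 ESC peaks without H3K27me3 the shares were 61.4% in WT MEF, 75.0% with dox and 87.1% in Utx-KO ESC. Over all sites the order of the classes thus differed between fibroblasts with and without dox. Utx-KO MEF with dox, whose list held fewer and wider H3K4me3 peaks (16157, median 3063 bp, 52.8 Mb), had the mark at 79.7% (77.5 to 81.7) of the doubly marked sites and at 70.8% of the others. Untreated Utx-KO MEF had it at 47.9% and 62.6%.

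The difference between site classes remained among peaks of like strength. In score group 1 of ESC 79.4% (74.3 to 83.8) of the doubly marked sites and 33.3% (31.8 to 34.8) of the others were marked with dox. In group 2 the shares were 91.3% and 60.2%, and in group 3 they were 97.5% and 84.4%. In WT MEF the corresponding shares were 27.4% and 13.5%, 38.1% and 33.0%, and 61.8% and 66.9%. In groups 1 and 2 the doubly marked sites were thus ahead in WT MEF as well, with overlapping intervals in group 2. Their share was lower in groups 3 to 5, with overlapping intervals in groups 3 and 5. Splitting into 5 groups by width in place of score gave 80.0% and 38.9% with dox in the narrowest group and 98.9% and 93.7% in the widest. Among sites that WT MEF lacked altogether, 606 of 718 doubly marked sites (84.4%, interval 81.6 to 86.9) and 35.9% of 6983 other sites carried H3K4me3 with dox. Without Utx the shares with dox were 63.2% and 25.3%.

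**Figure D2:**
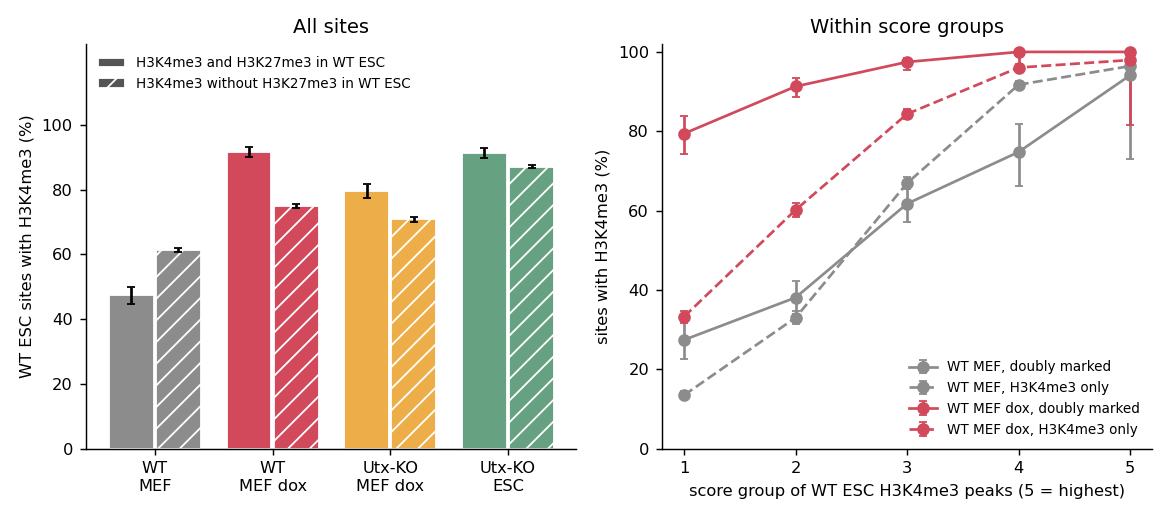
Left, share of WT ESC H3K4me3 sites with H3K4me3 in each other state, for sites with (plain bars) and without (hatched bars) H3K27me3 in WT ESC; right, the same for WT MEF (grey) and WT MEF dox (red) by score group of the ESC peaks, with solid lines for doubly marked sites and dashed lines for the others. Error bars are Wilson 95% intervals over peaks; score group 5 holds 17 doubly marked sites, and with dox the doubly marked sites lie above the others in each group.

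H3K27me3 was found at few of these sites with dox, though more often than at the other H3K4me3 sites of ESC. It was present at 60 of the 1364 doubly marked sites in WT MEF dox (4.40%, interval 3.43 to 5.62), at 0.277% among peaks with a score of at least 100 and at 7.32% with peaks widened by 1000 bp. At the 18104 ESC H3K4me3 peaks without H3K27me3 in ESC, it was present at 0.530% in WT MEF dox and at 3.29% in WT MEF. At the doubly marked sites the shares were 27.0% in WT MEF and 26.8% in its Utx-KO counterpart, 49.7% in Utx-KO MEF with dox, and 97.6% in Utx-KO ESC. They were 0.293% and 0.367% in iPS clones 1 and 2, whose H3K27me3 lists held 135 and 737 peaks. The clones had H3K4me3 at 97.6% and 99.6% of these sites, so H3K4me3 without H3K27me3 was not particular to WT MEF dox. The 368 sites that carried H3K27me3 in WT MEF had H3K4me3 at 23.1% in WT MEF and at 94.0% with dox, and kept H3K27me3 at 10.3% with dox. The 996 sites without H3K27me3 in WT MEF had H3K4me3 at 56.3% in WT MEF and at 90.9% with dox, and H3K27me3 at 2.21% with dox. The short H3K27me3 list of WT MEF dox bears on each H3K27me3 share of that state. Fewer marked cells, less mark per cell and a weak library cannot be told apart.

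By length the picture was the same. Sequence with both marks in WT ESC came to 1.04 Mb, of which 83.9% carried H3K4me3 only in WT MEF dox, 14.6% carried neither mark and 1.26% carried both. Sequence with H3K4me3 only in ESC (45.1 Mb) carried H3K4me3 only with dox over 74.5% of its length and neither mark over 25.3%. Sequence with H3K27me3 only in ESC (5.16 Mb) was unmarked with dox over 77.7% of its length, and 20.9% carried H3K4me3 only. Another 16.3 Mb carried H3K4me3 only with dox where ESC had neither mark.

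**Figure D3:**
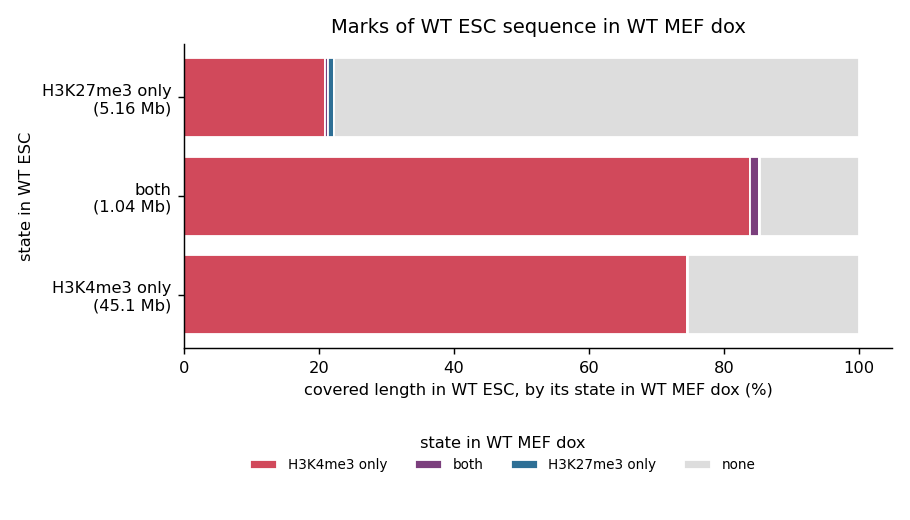
Bars show the length covered in WT ESC by H3K4me3 only, by both marks and by H3K27me3 only, divided by its state in WT MEF dox (percent of the length). H3K4me3 alone takes 83.9% of the doubly marked length, and H3K27me3 is barely visible in any bar.

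Single positions give the values behind these counts at doubly marked sites chosen for having no H3K27me3 with dox, in order of their H3K27me3 score in ESC. Chromosome 17 from 56614188 to 56615933 carried H3K27me3 at scores of 467 and 2557 in WT and Utx-KO ESC and at 0 in all 4 fibroblast lists, while its H3K4me3 scored 480 in WT MEF, 2901 in WT MEF dox and 324 in WT ESC. Chromosome 12 from 8304335 to 8306217 had H3K27me3 in untreated fibroblasts (404 in WT, 532 in Utx-KO), in Utx-KO MEF with dox (234) and in ESC (457 in WT, 1727 in Utx-KO). It had none in WT MEF dox, where it had H3K4me3 (120). Chromosome 5 from 33775646 to 33777766 had H3K27me3 scores of 274 in WT MEF, 163 in Utx-KO MEF and 1294 in Utx-KO MEF with dox, and of 452 (WT) and 2827 (Utx-KO) in ESC. It had none in WT MEF dox, with an H3K4me3 score of 489 in WT MEF dox and of 0 in WT MEF. WT MEF dox had H3K4me3 at all 3 of these sites.

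A few doubly marked sites had H3K27me3 with dox at low scores. They were 38 of the 368 sites that carried it in WT MEF and 22 of the 996 that did not. Both sites named next carried it in WT MEF. On chromosome 2 from 31490750 to 31492709, which had the highest H3K27me3 score of WT ESC (549), WT MEF dox scored 84.4 for H3K27me3 and 286 for H3K4me3. Chromosome 7 from 56894087 to 56895286 scored 52.8 for H3K27me3 with dox, 367 in WT MEF, 562 in Utx-KO MEF and 295 in WT ESC. In the reverse direction WT MEF dox had 237 doubly marked H3K4me3 peaks of its own (1.20% of its list), and 66 of them (27.8%) were doubly marked in ESC. Of all 19689 dox H3K4me3 peaks, 9.48% lay on a WT ESC H3K27me3 peak, and their share on doubly marked ESC sites was not counted.

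H3K27me3 itself was shared little. Of 6442 merged regions, 158 were marked in both states, 773 (12% of the regions) in WT MEF dox only and 5511 (85.5%) in WT ESC only, for a log2 ratio of -2.83 (interval -2.94 to -2.72), and -5.57 at a score of at least 100. Of the WT ESC peaks, 168 (2.96%) were met with dox and 16.6% in WT MEF. In score group 5 of ESC the shares were 6.43% with dox and 34.4% in WT MEF. The dox list held 938 peaks and the WT MEF list 4760, and the part of list size in these contrasts was not tested. Of the 4760 WT MEF peaks, 22.5% were met in WT ESC. Of the 938 dox peaks, 17.6% (15.3 to 20.2) were met in WT ESC, 21.4% in WT MEF, 29.9% in Utx-KO MEF with dox and 54.7% in Utx-KO ESC, whose list of 36231 peaks covers 79.8 Mb. Peaks of 1 stretch can miss each other: 28.5% of the dox-only and 8.87% of the ESC-only H3K27me3 peaks lay within 10 kb of a peak of the other list. With the 938 highest scoring peaks of each list, 7.36% of the ESC peaks and 8.00% of the dox peaks were met.

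The strongest H3K27me3 regions of WT MEF dox that WT ESC lacked carried other peaks as well. Chromosome 17 from 39979507 to 39986239 had the highest H3K27me3 score with dox (616), an H3K4me3 score of 330 in the same cells, and UTX scores of 98.0 with dox and 1737 in ESC, with no H3K27me3 in the other 7 lists. Chromosome 16 from 11143991 to 11144752 and from 57391370 to 57391939, with H3K27me3 scores of 206 and 159, also had H3K4me3 and ESC UTX peaks and no H3K27me3 in any other list. The fourth, chromosome 5 from 102096357 to 102097472, had H3K27me3 in all 4 fibroblast lists (965 in untreated and 139 in induced WT cells, 221 and 139 in the Utx-KO cells) and in Utx-KO ESC (1605), and H3K4me3 in none. The leading dox H3K27me3 peaks are therefore of mixed kind, and whether the first 3 reflect the mark was not tested.

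ESC H3K27me3 sites often carried H3K4me3 with dox. Of the 5679 WT ESC H3K27me3 peaks, 39.0% (37.7 to 40.2) overlapped H3K4me3 in WT MEF dox, against 26.6% in WT ESC itself, 13.3% in WT MEF and 32.5% in Utx-KO MEF with dox. The share with dox rose to 64.4% among peaks scoring 100 or more. It fell to 28.4% when overlaps had to reach 50% of the shorter peak. The shares in WT ESC and the other lists were not recounted under either setting. Of the 4171 that had no H3K4me3 in ESC, 863 (20.7%, interval 19.5 to 21.9) had it with dox, 5.32% in WT MEF and 16.0% in Utx-KO MEF with dox. WT MEF dox thus had H3K4me3 at sites where ESC had H3K27me3 alone. H3K4me3 peaks had a median width of 2379 bp with dox, 2099 bp in WT ESC and 1118 bp in WT MEF. Wider peaks give more room for overlap, and the part of width in these shares was not tested.

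H3K4me3 peaks were wider with dox, and more so at the doubly marked sites. At the 13817 regions with 1 peak in each list, the median width was 2686 bp with dox and 2373 bp in ESC, with a median log2 ratio of 0.14 (quartiles -0.09 and 0.42), and 65.9% were wider with dox. At the 1272 of these regions with H3K27me3 in ESC the medians were 2457 and 1805.5 bp, the median log2 ratio was 0.41, and 82.1% were wider with dox. Without H3K27me3 in ESC the ratio was 0.12 and 64.3% were wider with dox. A width ratio of at least 2 in favour of dox was reached by 217 of the 1272 regions, and in favour of ESC by 6. In a further 418 merged regions 1 dox peak spanned several ESC peaks, and in 88 the reverse held.

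**Figure D4:**
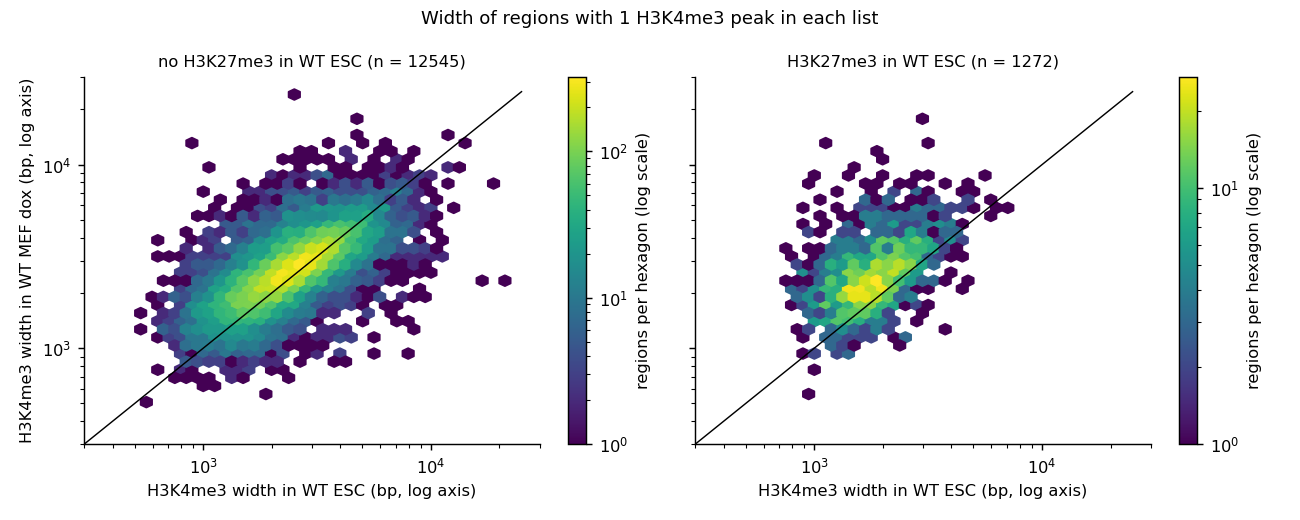
Width of the H3K4me3 peak in WT MEF dox against WT ESC (bp, log axes) at regions with 1 peak in each list, without (left, 12545 regions) and with (right, 1272 regions) H3K27me3 in WT ESC; colour gives the number of regions per hexagon on a log scale and the line marks equal width. More of the cloud lies above the line on the right (82.1% of regions) than on the left (64.3%).

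Single regions went far in either direction. The largest ratio in favour of dox was on chromosome 2 from 127471322 to 127483999, where the peak was 12678 bp wide with dox and 895 bp in ESC. Its H3K4me3 score was 3100 with dox, 52.6 in WT ESC, 142 in Utx-KO MEF with dox and 0 in both untreated fibroblasts, and H3K27me3 was present in WT MEF (257), in Utx-KO MEF without (204) and with dox (236), and in Utx-KO ESC (761). On chromosome 6 from 88143012 to 88156685 the widths were 13674 and 1145 bp, with H3K27me3 scores of 311 in WT MEF and 137 in WT ESC. The widest dox peak, on chromosome 13 from 63339912 to 63363325, measured 23414 bp against 2419 bp in ESC and had no H3K27me3 in any list.

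In the opposite direction, chromosome 5 from 108489245 to 108510712 measured 21468 bp in ESC and 2325 bp with dox. Chromosome 9 from 110843210 to 110850949 measured 7740 bp in ESC (score 3100) and 914 bp with dox (score 50.2), with no H3K4me3 in WT MEF, Utx-KO MEF or Utx-KO MEF with dox. Chromosome 2 from 162877908 to 162895112 measured 17205 bp in ESC and 2359 bp with dox. All 3 of these regions carried a UTX peak of ESC (scores 136, 235 and 132), and of the 5 regions with the largest ratio in favour of ESC 4 did, against none of the 5 in favour of dox. Among all regions marked in both states, 5.48% carried one. The ranking itself makes the ESC peaks wide in the first set and narrow in the second. The part of width in these small counts was not tested.

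Over windows of 100 kb the excess of H3K4me3 with dox grew with the amount of H3K27me3 in ESC. In 63.6% of the 11015 windows with H3K4me3 in either state, dox cells had the greater covered length. Across windows the lengths had a Pearson r of 0.775, a description of these 2 libraries whose windows are not independent. Among 8285 windows without ESC H3K27me3, 59.7% (58.7 to 60.8) had more with dox, with a median difference of 0.326 kb. The share was 74.6% (median 0.988 kb) in the 2556 windows with less than 5 kb of ESC H3K27me3, 86.0% (3.20 kb) in the 136 windows with 5 to under 10 kb, and 92.1% (79.2 to 97.3) in the 38 windows with 10 kb or more. In those 38 windows the median H3K4me3 length was 1.57 kb in WT MEF, 11.0 kb in WT MEF dox and 3.82 kb in WT ESC. It was 5.64 kb in induced Utx-KO MEF. Their median H3K27me3 length was 8.69 kb in WT MEF, 0.626 kb in WT MEF dox and 12.1 kb in WT ESC, against 15.6 kb in induced Utx-KO MEF. The windows were chosen by their ESC H3K27me3, and the short H3K27me3 list with dox bears on the dox value.

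**Figure D5:**
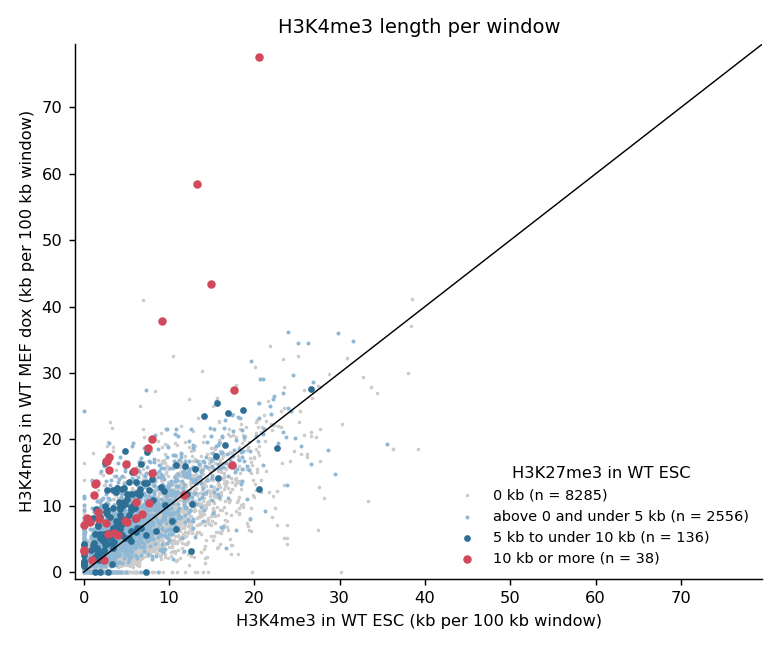
H3K4me3 length per 100 kb window in WT MEF dox against WT ESC (kb), each point 1 window, coloured by the H3K27me3 length of the window in WT ESC; the line marks equal length. Of the 38 windows with 10 kb or more of ESC H3K27me3 (red), 35 lie above the line, and the highest points reach 77.5 and 58.4 kb with dox.

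Of the 5 windows with the largest excess with dox, 4 held more than 10 kb of H3K27me3 in ESC. On chromosome 6 from 52100001 to 52200000, H3K4me3 covered 26.4 kb in WT MEF, 77.5 kb in WT MEF dox, 51.7 kb in its Utx-KO counterpart and 20.5 kb in WT ESC. H3K27me3 there covered 9.33, 0.584, 62.9 and 31.6 kb in the same order. On chromosome 11 from 96100001 to 96200000 the H3K4me3 lengths were 20.1, 58.4, 27.9 and 13.3 kb, and the H3K27me3 lengths 13.8, 0.618, 49.2 and 30.4 kb. On chromosome 2 from 74500001 to 74600000 they were 1.21, 37.8, 11.8 and 9.23 kb for H3K4me3 and 34.9, 2.40, 69.0 and 33.5 kb for H3K27me3. In each of these 3 windows WT MEF dox had the most H3K4me3 and the least H3K27me3 of the 4 states. The excess of H3K4me3 over ESC was fixed by the selection. With dox H3K27me3 covered 0.643 Mb in all, against 4.59 Mb (WT MEF), 6.41 Mb (Utx-KO MEF with dox) and 6.20 Mb (WT ESC). The part of this short list in the low H3K27me3 lengths was not tested. The 3 windows are also among the 5 windows with the largest excess of H3K27me3 in ESC. The window on chromosome 13 from 63300001 to 63400000 differed, with 41.0 kb of H3K4me3 with dox against 6.90 kb in ESC and no H3K27me3 in either.

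The 5 windows with the largest excess in ESC had no H3K27me3 in either state. Of all 11015 windows, 8285 had none in ESC, so its absence is not particular to these windows. On chromosome 12 from 87800001 to 87900000 H3K4me3 covered 30.2 and 35.6 kb in WT and Utx-KO ESC and 0 kb in all 4 fibroblast lists. The window on chromosome 15 from 25600001 to 25700000 held 19.8 and 19.3 kb in these ESC lists and likewise 0 kb in fibroblasts. On chromosome 6 from 122600001 to 122700000 dox cells had 6.31 kb, WT MEF 2.25 kb and WT ESC 27.4 kb. On chromosome 17 from 46900001 to 47000000 they had 10.8, 6.53 and 33.3 kb, and from 37100001 to 37200000 they had 18.6, 5.19 and 39.2 kb. In the last 3 windows the dox value lay between the untreated fibroblast and ESC.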

How the data were processed

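ChIP-seq peak lists of single samples were used as the authors deposited them, with the chromosome, start, end and a score for each peak. MACS 1.4.1, CASAVA 1.8.2, Bowtie 0.12.5 and the build mm9 are named in the submitters' processing notes. Which step each tool ran, and with what settings and controls, is not given in the sources used here. As deposited, the score behaves as -10 times the base 10 logarithm of a probability and saturates near 3100. Ranks and filters used it within each list. Scores of different lists are given side by side as values, and a difference between them is not a measure of strength. Samples were grouped by their titles. Coordinates are 1-based. 1 mitochondrial peak of WT MEF dox H3K27me3 was left out, and the whole-cell extracts were not analysed here.

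Overlapping peaks of both lists (at least 1 bp) were merged into regions, and regions and peaks were counted by class. The log2 ratios compare counts with 1 added to each and carry exact binomial (Clopper-Pearson) 95% intervals. Shares carry Wilson 95% intervals. Windows were 100 kb. The regions named are the 5 with the highest score per class (equal scores by width), the 5 with the largest width ratios and the 5 windows with the largest differences, from which the text gives a selection. Members, lists and rules were chosen with earlier results of these data known. The splits by score and width, the classes of the highest score group, the windows by H3K27me3, the runs and UTX by score group were added after the data were seen. The overlap code was tested on simulated data, where all counts came back in 10 of 10 pairs of lists, and in 10 of 10 real pairs with bedtools 2.31.1. Software was Python 3.11.15 with pandas 2.3.3, numpy 2.4.6, matplotlib 3.10.9 and scipy 1.17.1. Alternatives were an overlap of 50% of the shorter peak, scores of at least 100, equal numbers of top-scoring peaks, autosomes only, peaks widened by 1000 bp and windows of 50 kb.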

Additional observations from a re-analysis of the deposited data

Results flagged for a closer look

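The balance of H3K4me3 regions between dox-treated fibroblasts and ESC had opposite signs with and without Utx. In WT cells the log2 ratio of regions only with dox over regions only in ESC was 0.17 (5215 against 4639). In Utx-KO cells it was -1.15 (2675 against 5943, with 13441 in both). Each genotype had 1 library per state, so this difference was not tested. The covered lengths did not follow the counts: 52.8 Mb with dox and 43.3 Mb in ESC without Utx, against 52.0 and 46.1 Mb with it.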

How the results depend on the processing

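A result was said to move where it left its counting interval. For the median width ratio the quartiles of the log2 ratios (-0.09 and 0.42) were used in its place, so that ratio could hardly move. It was 0.08 with peaks widened by 1000 bp. On autosomes alone none of the 12 main results moved. At a score of at least 100, 11 moved: the H3K4me3 log2 ratio was 0.75 and the H3K27me3 ratio -5.57, ESC H3K4me3 peaks were met at 84.7% and dox peaks at 76.3%, ESC H3K27me3 peaks at 0.2% and dox peaks at 9.09% (of 22). ESC peaks absent from MEF were met with dox at 51.4%, dox peaks absent from ESC were met in MEF at 27.2%, doubly marked sites had H3K4me3 at 93.4% and H3K27me3 at 0.277% with dox, and ESC H3K27me3 peaks had H3K4me3 at 64.4%. With equal numbers of top-scoring peaks the ratios were 0.11 and -0.01, which such numbers bring towards 0 by construction. Dox H3K4me3 peaks were then met at 74.1%, H3K27me3 peaks at 7.36% (ESC) and 8% (dox), and doubly marked sites had H3K27me3 at 6.07%. With an overlap of 50% of the shorter peak, H3K27me3 peaks were met at 2.15% (ESC) and 13.6% (dox), doubly marked sites had H3K4me3 at 90% and ESC H3K27me3 peaks had it at 28.4%. With peaks widened by 1000 bp, H3K4me3 peaks were met at 78.4% (ESC) and 75.8% (dox), H3K27me3 peaks at 6.29% and 29.4%, ESC peaks absent from MEF at 42.9% and dox peaks absent from ESC at 24% in MEF. Doubly marked sites then had H3K27me3 at 7.32%, and ESC H3K27me3 peaks had H3K4me3 at 51.4%. No log2 ratio changed sign under these 5 settings, but the H3K27me3 ratio of -0.01 with equal numbers had an interval of -0.15 to 0.13. A share has no sign, so the shares could not be reversed. Windows of 50 kb gave 62.7% with more H3K4me3 with dox. Depth was unknown, and the short H3K27me3 list with dox limits each share that rests on it.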

Other observations

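Dox H3K4me3 peaks absent from ESC also occurred in runs. The longest held 12 peaks on chromosome 10 from 120001024 to 120320611, of which 3 were met in WT MEF and 4 in Utx-KO MEF, 3 in the latter with dox and none in Utx-KO ESC. The next held 11 peaks on chromosome 15 from 101146150 to 101772153, of which 1 was met in WT MEF and 4 in Utx-KO MEF with dox.

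The share of WT ESC H3K4me3 peaks met with dox differed among chromosomes, from 70.8% (interval 66.9 to 74.3) of 578 peaks on chromosome 18 to 82.9% (79.5 to 85.8) of 554 on chromosome X, leaving out chromosome Y with 3 peaks.

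Among the strongest H3K4me3 regions shared by both states, chromosome 16 from 18875103 to 18879522 scored 3204 with dox, 3160 in WT ESC and 386 in WT MEF. Chromosome 2 from 69559710 to 69563204 scored 3233, 3227 and 1094. On chromosome 18 from 75524535 to 75541246 the scores were 3100 with dox and in WT ESC, 2997 in WT MEF and 2057 in Utx-KO MEF.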
